A study of Mus musculus with 16 samples.

Results

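The organic anion and cation transporters of the kidney were examined in 4 male mice lacking Slc15a2 (Pept2), centred on Slc22a8, Slc22a2, Slco1a6 and Slc13a3. A transporter was listed if it moves drugs, organic ions or dicarboxylates in proximal tubule, and it was measured where a probe on the array names that gene alone. Of 50 listed transporters, 28 had such a probe and 22 passed the requirement of a value in each mouse and each dye orientation, among 6191 genes that did so. The 4 named genes were chosen from their ratios in these arrays, so those ratios are given as a description. Test calls against the pool are counted below over all genes, and none is read as support for the 4.

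Right kidneys of 4 Pept2 knockout mice, derived from F4 animals of a Pept2+/- line on a mixed C57BL/6 and 129Sv background and 88 ± 2 days old, were each compared with 1 RNA pool from the right kidneys of 5 wild-type mice. Slc15a2 encodes the proton-coupled transporter that recovers small peptides and peptide-like drugs from the filtrate, and no treatment was given in the labels. Each mouse was hybridised on 4 spotted cDNA arrays, 2 with the knockout RNA in channel 1 and 2 with it in channel 2. Values are log2 ratios of knockout over pool, averaged to 1 value per mouse.

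The direction of the ratios is the likely one, not a stated one: the sources used here do not name the numerator. Read as channel 1 over channel 2, Slc15a2 was below the pool on 16 of 16 arrays, with -2.17, -2.74, -2.81 and -2.33 in mice 1 to 4. The opposite reading would exchange higher and lower for every gene. Only the pool represents wild-type kidney, so the spread between wild-type animals was not measured and any bias in that one preparation enters each ratio. Whole kidney was used, in which fewer cells of a type and less RNA per cell cannot be told apart. The deposited ratios hold no signal level, so the presence of a transcript or marker cannot be read from them, and neither can its level relative to another gene. A spotted cDNA may also bind transcripts of close relatives of its gene, which was not tested.

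The proximal tubule clears drugs and metabolites by taking them up from blood across the basolateral membrane and releasing them into the lumen across the apical membrane. The organic anion transporters OAT1 (Slc22a6) and OAT3 (Slc22a8) exchange an anion from blood for a dicarboxylate of the cell, chiefly alpha-ketoglutarate, which the sodium-coupled carrier NaDC3 (Slc13a3) helps to replenish. Organic cations enter through carriers such as OCT2 (Slc22a2), driven by the membrane potential. Apical exit and reabsorption use other families, among them the sodium phosphate cotransporter relatives NPT1 and NPT4 (Slc17a1 and Slc17a3) and the urate exchanger URAT1 (Slc22a12).

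Slc22a8 and Slc22a6 are adjacent genes on chromosome 19 in the RefSeq gene order, with related sequences and the same mode of transport, and they are shown first because their ratios differed although they lie side by side. The 250 bases before each start are given from RefSeq on the build GRCm38.p6, 5′ to 3′, at chr19:8592932-8593181 (plus strand) for Slc22a8 and chr19:8617746-8617995 (plus strand) for Slc22a6. Capitals mark GTTAAT, the half-site of hepatocyte nuclear factor 1, a regulator of proximal tubule genes.
Slc22a8: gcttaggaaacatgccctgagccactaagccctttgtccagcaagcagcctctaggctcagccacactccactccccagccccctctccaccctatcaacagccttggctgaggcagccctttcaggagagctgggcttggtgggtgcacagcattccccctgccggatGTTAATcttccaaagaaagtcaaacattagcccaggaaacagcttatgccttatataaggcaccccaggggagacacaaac
Slc22a6: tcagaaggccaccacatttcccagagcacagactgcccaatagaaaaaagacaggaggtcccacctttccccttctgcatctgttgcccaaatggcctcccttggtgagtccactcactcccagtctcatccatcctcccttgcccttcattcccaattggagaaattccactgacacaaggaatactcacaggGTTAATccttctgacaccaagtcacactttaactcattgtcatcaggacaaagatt
The half-site begins at position -81 in Slc22a8 and at -56 in Slc22a6, counted from the start. Of the 19 measured transporters with a promoter entry, these 2 held GTTAAT on either strand, as did 6.43% of 32851 promoters of this length. Here and below, transporters are counted as genes with a match in any of their entries (25 in all). The background is counted as single promoter entries, so the 2 shares are not in the same unit. A match is a description of the letters, not of binding.

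Slco1a6, the transporter furthest below the pool, is shown with the site of a second regulator of hepatic and renal transporters, hepatocyte nuclear factor 4. Its sequence lies at chr6:142186150-142186399 (minus strand), with CAAAGTNCA in capitals.
Slco1a6: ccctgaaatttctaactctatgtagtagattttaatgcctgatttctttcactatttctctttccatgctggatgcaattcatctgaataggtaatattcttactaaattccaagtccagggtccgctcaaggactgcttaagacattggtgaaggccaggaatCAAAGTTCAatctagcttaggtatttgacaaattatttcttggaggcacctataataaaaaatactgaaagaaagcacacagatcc
That site begins at position -86 and was found in 1 of the 19 transporters and in 1.19% of all promoters. The letters TATAAA, on either strand, occurred in 1 of the 19, Slc26a1, at position -240, and in 12.4% of all promoters. Other forms of the TATA box, such as the TATATAAG in the printed Slc22a8 sequence, were not searched, so absence of TATAAA is not absence of a TATA box. None of the printed sequences held more than 1 match to the letters searched.

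Slc22a8, which carries organic anions, antibiotics and diuretics from blood into the tubule cell, read above the pool in every mouse. Its log2 ratios were 0.43, 0.34, 0.57 and 0.59 in mice 1 to 4, with a mean of 0.48 (SD 0.11, n = 4 mice), or 1.4-fold. All 16 arrays lay above 0, from 0.09 to 1.16 with a median of 0.47. The mice spanned 0.24, and the F test between them did not pass, with an adjusted p of 0.696 (limma, Benjamini-Hochberg over 6191 genes).

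Slc22a6, the other basolateral anion exchanger, lay around the pool. Its ratios were -0.04, -0.21, 0.04 and 0.13, with a mean of -0.02 (SD 0.14, n = 4 mice). 5 of 16 arrays were above 0 and 11 below, between -0.42 and 0.72. These values straddled 0, and each mouse's value was below that mouse's Slc22a8 value.

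The difference between the neighbours varied less than either gene. Slc22a8 minus Slc22a6 was 0.47, 0.55, 0.52 and 0.45 in mice 1 to 4, a mean of 0.50 (SD 0.04, n = 4 mice). It was positive on all 16 arrays, from 0.33 to 0.73 with a median of 0.50. Across arrays its SD was 0.10, against 0.24 for Slc22a8 and 0.25 for Slc22a6 alone. It read 0.48 with the knockout RNA in channel 1 and 0.52 with it in channel 2, whereas the mean of Slc22a8 itself read 0.60 and 0.37. The array with the highest Slc22a8 ratio, 1.16 in mouse 4, also had the highest Slc22a6 ratio, 0.72. The pair was singled out after its values were seen, and the difference carries no test.

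**Figure D1:**
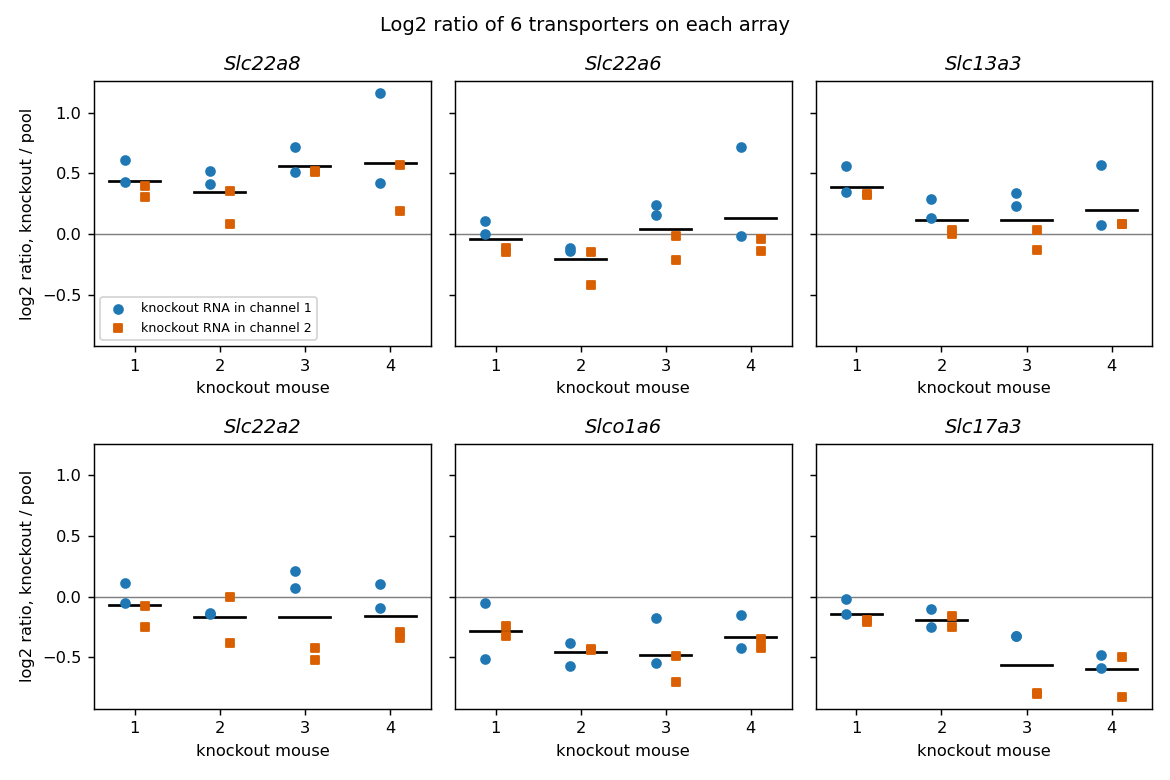
Log2 ratio of knockout over pool (vertical axis) on each of 16 arrays for 6 transporters, by knockout mouse; circles are arrays with the knockout RNA in channel 1, squares those with it in channel 2, and black bars the value of a mouse. All Slc22a8 points lie above 0 and all Slco1a6 and Slc17a3 points below, Slc17a3 lower in mice 3 and 4 than in mice 1 and 2, and Slc22a2 circles lie around 0 above most of its squares.

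Slc13a3, the dicarboxylate carrier that feeds the anion exchangers, was also above the pool in each mouse, at 0.39, 0.11, 0.12 and 0.20. The mean was 0.21 (SD 0.13, n = 4 mice), or 1.15-fold. 15 of 16 arrays lay above 0, from -0.13 to 0.57. Mouse 1 was the highest and the others lay close together, and the F test between mice did not pass, at an adjusted p of 0.381. The ratio read 0.32 with the knockout RNA in channel 1 and 0.09 in channel 2, and the test of that dye difference gave an adjusted p of 0.188 (limma, n = 4 mice). Slc26a1, the basolateral exchanger of sulfate and oxalate, was the other measured carrier of dicarboxylates and lay at -0.02 (SD 0.06).

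Slc22a2, the cation transporter that takes up metformin and creatinine, was slightly below the pool. Its ratios were -0.07, -0.16, -0.16 and -0.15, a mean of -0.14 (SD 0.05, n = 4 mice), or 1.1-fold lower. The arrays were mixed, 12 below 0 and 4 above, from -0.52 to 0.22. With the knockout RNA in channel 2 the mice read -0.16, -0.19, -0.47 and -0.31, all below 0. With it in channel 1 they read 0.03, -0.13, 0.14 and 0.01, around a mean of 0.01. The sign of the mean therefore depended on the dye orientation, and the test of that difference (0.30) gave an adjusted p of 0.192.

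Slco1a6, an organic anion transporting polypeptide of rodents whose membrane side was not settled here, lay below the pool in each mouse. The ratios were -0.28, -0.46, -0.48 and -0.33, a mean of -0.39 (SD 0.09, n = 4 mice), or 1.31-fold lower. All 16 arrays were below 0, from -0.70 to -0.05. The orientations read -0.35 in channel 1 and -0.42 in channel 2, with an adjusted p of 0.619 for their difference, and the mice did not pass the F test (adjusted p = 0.711). Its relatives Slco1a1, Slco1a4 and Slco1a5 had no single-gene probe in these data, so its ratio could not be set beside theirs.

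Ranked by absolute log2 ratio among 6191 genes, Slc22a8 stood at 13, Slco1a6 at 27, Slc13a3 at 304 and Slc22a2 at 969. An adjusted p under 0.05 against the pool was reached by 13 genes, 0.21% of those tested, and by 2 of the 22 transporters, Slc22a8 (higher; 0.0646% of genes) and Slco1a6 (lower; 0.145%). The members were chosen on this comparison, so nothing is read from that count. Without any 1 of the mice neither transporter passed, and the count over all genes was 1 to 6. The absolute ratio was above 0.2 in 4 of 22 transporters and in 5.49% of genes. With arrays as measurements and the mouse as a random block, 467 genes (7.54%) and 4 of 22 transporters passed, Slc13a3 and Slc17a3 being added. That fit used 1 correlation of 0.014 for all genes and so treated the arrays of a mouse as nearly independent. For Slc17a3 the SD was 0.24 between mice and 0.10 within a mouse and orientation. The added calls therefore rest on technical replicates and are not read as results over 4 animals. The named genes are not those with the largest ratios throughout: Slc22a2 (-0.14) lay closer to 0 than Slc17a3 (-0.37) and Slc22a18 (0.16).

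Slc17a3, which encodes the apical urate and anion carrier NPT4, differed between the knockout mice themselves. Its ratios were -0.14, -0.19, -0.56 and -0.60, with a mean of -0.37 (SD 0.24, n = 4 mice), or 1.29-fold lower. All 16 arrays were below 0, and mice 3 and 4 lay well below mice 1 and 2. The moderated F test at array level, in which the shared pool cancels, gave an adjusted p of 0.0189 (limma, Benjamini-Hochberg over 6191 genes). It was the only one of 22 transporters past that threshold, which 2.54% of genes passed; at an unadjusted p under 0.05 the shares were 3 of 22 and 13.6%. The adjusted p was 0.17, 0.0881, 0.0578 and 0.0695 without mouse 1, 2, 3 and 4 in turn, so the call needed all 4 animals. It was also lost with arrays 1 and 2 only (0.175), with arrays 3 and 4 only (0.45) and without the dye orientation as covariate (0.0712). The test takes arrays as replicates and compares these 4 animals, not genotypes.

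Other listed genes also differed between these animals: 2 of 36 measured pathway genes and 5 of 42 measured markers passed the F test, beside the 2.54% of all genes. Sucla2, a subunit of succinyl-CoA ligase, read 0.06, 0.10, -0.32 and -0.34 in mice 1 to 4 (adjusted p = 0.0125 in limma). Umod, the uromodulin of the thick ascending limb, read -0.14, -0.33, 0.19 and 0.27 (adjusted p = 0.0125), whereas Ppp1r1a, the other measured marker of that segment, read -0.13, -0.09, -0.39 and -0.17 and did not pass. Idh1, an isocitrate dehydrogenase, the proximal tubule marker Acy3 and the intercalated cell factor Foxi1 also had mice 1 and 2 on one side of 0 and mice 3 and 4 on the other. Krt18 (0.19, -0.16, 0.31 and 0.20) and Col1a1 (-0.17, 0.21, -0.23 and 0.04) did not. Their part in the Slc17a3 values was not tested.

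Slc17a1 (NPT1), the neighbour of Slc17a3 on chromosome 13, did not show the same values. It read 0.06, -0.05, 0.00 and -0.10, a mean of -0.02 (SD 0.07). Slc17a3 minus Slc17a1 was -0.20, -0.14, -0.56 and -0.50, and it was below 0 on 14 of the 15 arrays with both values.

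**Figure D2:**
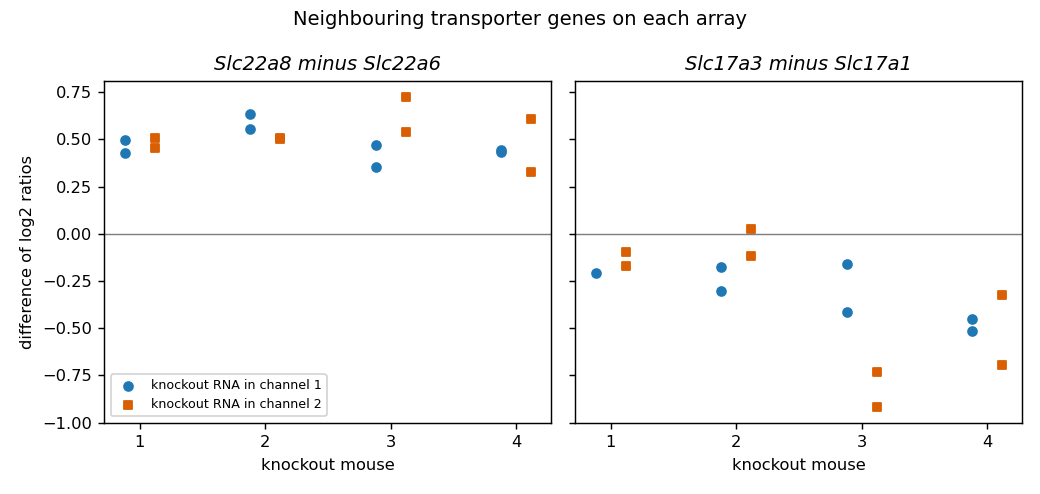
Difference of log2 ratios (vertical axis) on each array for the adjacent pairs Slc22a8 and Slc22a6 (left, 16 arrays) and Slc17a3 and Slc17a1 (right, 15 arrays), by knockout mouse; circles and squares are the knockout RNA in channel 1 and 2. The left pair lies between 0.33 and 0.73 throughout, and the right pair is lower in mice 3 and 4, at -0.56 and -0.50, than in mice 1 and 2.

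The other apical members lay near the pool. Slc22a13 (OAT10), which exchanges nicotinate and urate, had a mean of 0.05 (SD 0.10, n = 4 mice). Slc22a12 (URAT1), the urate reabsorber, had -0.01 (SD 0.04), with 8 arrays on each side of 0. Slc22a5 (OCTN2), the carnitine transporter, had -0.08 (SD 0.13), with mouse 1 at 0.10 and the others between -0.20 and -0.10. All of these means lay within the SD between mice.

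Of the remaining basolateral members, the efflux pump Abcc5 (MRP5) read -0.02, 0.16, 0.15 and 0.18, a mean of 0.12 (SD 0.09). Its other probes, with values on too few arrays to be tested, averaged 0.07 and -0.04. Slc51b, the beta subunit of the organic solute transporter, had a mean of -0.03 (SD 0.08), and the pump Abcc1 (MRP1) also -0.03 (SD 0.14). Abcc5 was above the pool in mice 2 to 4, whereas Slc51b and Abcc1 lay on both sides of it. Its mean depended on the dye orientation, at -0.0037 with the knockout RNA in channel 1 and 0.24 in channel 2. That difference had an adjusted p of 0.222 (limma), and Abcc5 had values on 11 arrays, 7 above 0 and 4 below.

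By membrane side, the 8 measured basolateral transporters had a median log2 ratio of -0.02 and the 5 apical ones also -0.02, beside -0.004 over all genes. 3 basolateral members were above 0 and 5 below, against 1 above and 4 below among the apical ones. The basolateral genes Slc22a8, Slc22a2 and Slc13a3 were chosen from these ratios, and no apical gene was. The 5 other basolateral genes had a median of -0.02, from -0.03 to 0.12, with 1 above 0 and 4 below. In mice 1 to 4 the basolateral median was -0.01, 0.00, 0.05 and 0.07, and the apical median 0.06, -0.06, 0.00 and -0.10. The difference between sides was thus -0.07, 0.06, 0.05 and 0.17, which straddled 0 with an SD of 0.0976. Its value from the means over mice was 0.0059, which is smaller than that SD. Leaving out mouse 1, 2, 3 or 4 gave 0.0424, 0.0474, 0.0344 and -0.0213. The value was above that SD in some readings, at 0.1276 with the knockout RNA in channel 2 only, and over 2 apical genes at 0.1593 with arrays 3 and 4 only and 0.1718 with probes valued on all arrays. The difference thus depended on the arrays and probes used. The basolateral members ran from -0.14 (Slc22a2) to 0.48 (Slc22a8), and the apical ones from -0.37 (Slc17a3) to 0.05 (Slc22a13). By substrate, 11 organic anion carriers had a median of -0.02 and 4 organic cation carriers one of -0.10. 3 of those 4 were below 0, beside 3204 of 6191 genes, and they include Slc22a2, which was chosen on its ratio. The cation median was 0.05, -0.05, -0.18 and -0.14 in mice 1 to 4, so mouse 1 read the other way. The median dye difference of the cation carriers, channel 1 minus channel 2, was 0.21.

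**Figure D3:**
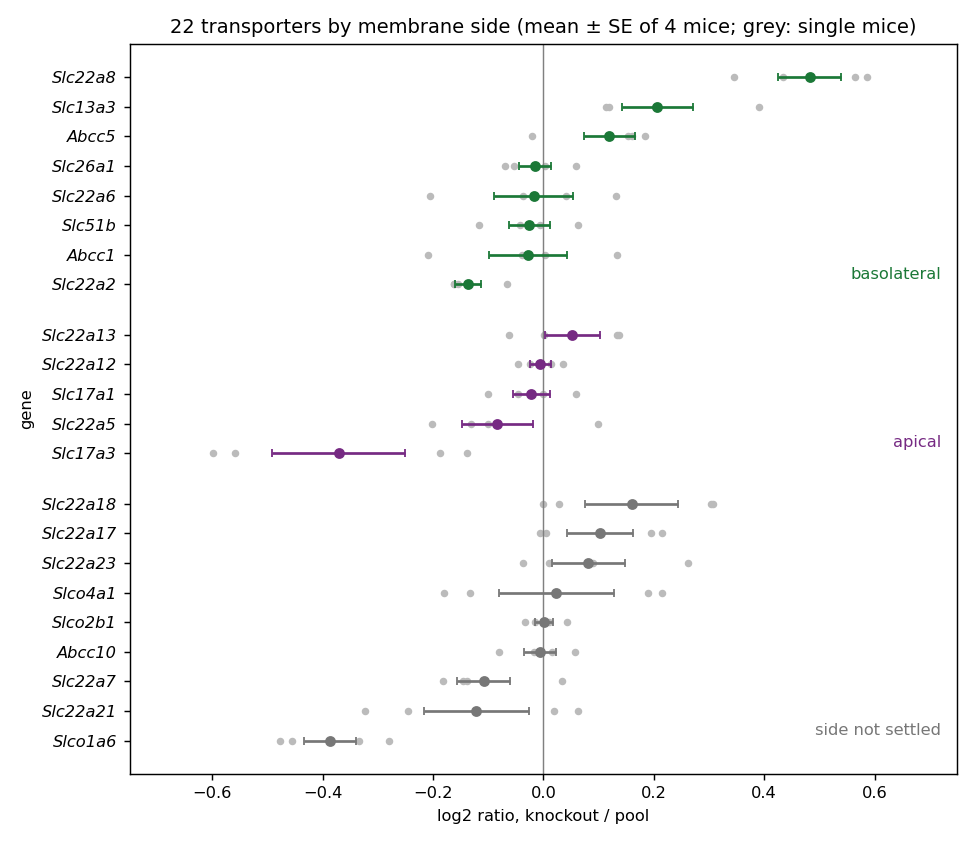
Mean log2 ratio of knockout over pool (horizontal axis) of the 22 measured transporters with the SE over 4 mice, grouped by membrane side; grey points are single mice. Slc22a8 at 0.48 stands to the right of the other basolateral genes, and Slc17a3 at -0.37 and Slco1a6 at -0.39 stand to the left of their groups.

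Among the members without a settled side, Slc22a18 and Slc22a17 had the highest ratios, 0.16 (SD 0.17) and 0.10 (SD 0.12). Slc22a18, an imprinted member of the family, read 0.03, 0.00, 0.31 and 0.30 in mice 1 to 4, and Slc22a17, a lipocalin receptor, read 0.00, -0.01, 0.19 and 0.22, so that mice 3 and 4 were the higher ones. Slco4a1, a carrier of thyroid hormone, ran the other way, at 0.21, 0.19, -0.13 and -0.18, and so did the carnitine carrier Slc22a21, at 0.06, 0.02, -0.32 and -0.25. None of these 4 passed the F test between mice, with adjusted p-values of 0.283, 0.633, 0.268 and 0.368 in limma. Slc22a7 (OAT2) had a mean of -0.11 (SD 0.10), Slc22a23 one of 0.08 (SD 0.13), Slco2b1 one of 0.00 (SD 0.03) and the pump Abcc10 one of -0.01 (SD 0.06).

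6 further listed transporters had a probe with values on too few arrays to be tested. The apical efflux pump Abcc4 had 3 values between -0.05 and 0.62, and Slc51a, the partner subunit of Slc51b, had 11 between -0.17 and 0.85. Abcc3, Slc2a9 and Slc47a2 had 10 each, with medians of 0.04, -0.05 and 0.13, and Slc13a5 had 1, at 0.01. The 22 listed genes without a single-gene probe include the cation transporter Slc47a1 and the apical dicarboxylate carrier Slc13a2, which were not analysed here.

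The transporters were also read by dye orientation. 17 of 22 read higher with the knockout RNA in channel 1 than in channel 2, beside 56.1% of all genes, and the median difference was 0.147, against 0.025 over all genes. No gene passed the dye test after adjustment (0.0% of 6191, limma), whereas 1208 genes (19.5%) and 10 of 22 transporters had an unadjusted p under 0.05. Slc22a6 had the smallest p of the transporters (0.00931, adjusted 0.177), at 0.12 in channel 1 and -0.15 in channel 2. Slc22a7 read 0.04 and -0.25. The ratios given above average both orientations, and the means of Slc22a8, Slc13a3, Slco1a6 and Slc17a3 had the same sign in each orientation, whereas that of Slc22a2 did not.

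**Figure D4:**
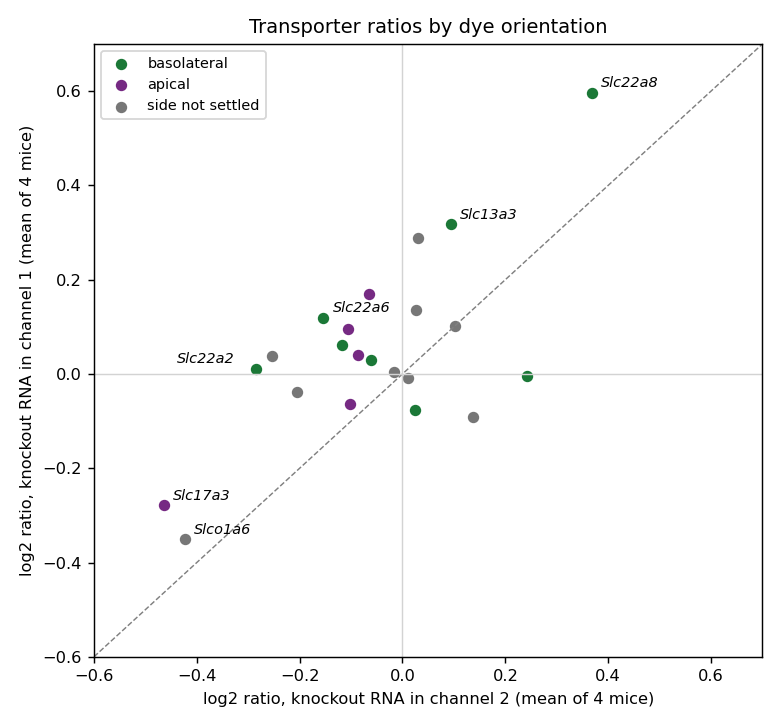
Mean log2 ratio over 4 mice with the knockout RNA in channel 1 (vertical axis) against channel 2 (horizontal axis) for the 22 measured transporters, coloured by membrane side; the dashed line marks equal values. 17 points lie above the line, and Slc22a2 sits at 0.01 on the vertical and -0.28 on the horizontal axis.

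Read by sign, 3 of the 13 transporters with values on all 16 arrays had the same sign on every array, namely Slc22a8, Slco1a6 and Slc17a3, against 1.42% of the 2826 genes with such values. The same sign in all 4 mice was found in 5 of 22 transporters, and in 25.6% of genes. These 5 are the named genes and Slc17a3. In all 8 means of a mouse in one orientation the sign was the same for 3 of 22 transporters and 5.39% of genes. Since the named genes were chosen from these ratios, the counts are a description.

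The genes with the most similar values were sought by the root mean square difference over the 8 means of a mouse in one orientation. For Slc22a8 they were Tst, a mitochondrial sulfurtransferase (0.129), Slc7a7, a basolateral amino acid transporter subunit (0.212), and Alpl, an alkaline phosphatase (0.214), against 0.538 for the median gene. For Slco1a6 they were Slc35a5 (0.114), Myo5a (0.128) and Pcnp (0.134), against 0.425. Slc13a3 was nearest to Fitm1 (0.0835), Acaa1a (0.100) and Net1 (0.102), against 0.310, and Slc22a2 to Syf2 (0.06), Tmem87a (0.0653) and Eif1ax (0.0725), against 0.268. No listed transporter was among these nearest genes. They were picked as the smallest distances over all genes, so their lying below the median gene was fixed in advance.

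Genes that serve the transporters were read from lists of regulators, scaffolds and ion gradient genes, the sodium pump, dicarboxylate metabolism and monocarboxylate carriers. Of 36 measured, 0 passed the test against the pool (limma), and 7 had an unadjusted p under 0.05, as did 16.8% of all genes. 23 were above 0, beside 48.2% of all genes. Slc25a10, the mitochondrial dicarboxylate carrier, had the largest ratio, at 0.26, 0.11, 0.31 and 0.40 in mice 1 to 4 and a mean of 0.27 (SD 0.12). Its adjusted p was 0.117, and it was positive in each mouse as Slc13a3 was. Among 7 nuclear regulators, Ppara, the fatty acid sensor, and Nr1h4, the bile acid receptor, both had 0.17, and Hnf4a had -0.09. Of the scaffolds that anchor apical carriers, Slc9a3r1 had 0.19 (SD 0.12) and Pdzk1 -0.09 (SD 0.11). The sodium pump subunits Atp1b3 and Atp1b1 had -0.15 and -0.10, and the pump's regulator Fxyd2 had 0.08.

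The cell type markers were measured as ratios only. Of 42 measured markers, 0 passed against the pool (limma), and 13 had an unadjusted p under 0.05, beside 16.8% of all genes. The 9 proximal tubule markers had a median of 0.02, between -0.10 for Kap and 0.27 for Hpd, and 5 were above 0. In mice 1 to 4 that median was 0.06, 0.03, 0.08 and -0.06. The 7 collecting duct markers had a median of 0.11, 6 of them above 0, with Aqp2, the water channel, at 0.27. By mouse that median was 0.15, -0.09, 0.14 and 0.20, so mouse 2 read the other way. The 8 fibroblast and smooth muscle markers had -0.09, 7 of them below 0, with the collagen Col3a1 at -0.32. Their median by mouse was -0.18, 0.06, -0.21 and -0.17, mouse 2 again reading the other way. The 5 endothelial markers had a median of -0.07. The 2 podocyte markers, Podxl and Cdkn1c, had -0.19 and -0.14, and both had an unadjusted p under 0.05. The 2 markers of the loop and distal tubule had a median of -0.10, 7 leukocyte markers one of 0.07 and 2 erythroid markers one of -0.02. The part of these shifts in the transporter ratios was not tested.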

How the data were processed

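Total RNA of 4 knockout right kidneys and 1 pool of 5 wild-type right kidneys was labelled with Cy3 or Cy5 and hybridised on 16 spotted cDNA arrays, per the labels. Background was subtracted by the authors and each array set to a median ratio of 1, per the labels. The deposited values are log2 ratios per probe and array. The base was found from the values, where 46.5% of 720 distances between repeated values matched log2 of a simple fraction, against 0.0% for natural and decimal logarithms. Why some cells are blank is not given in the sources used. An array had values for 10134 (50.2%) to 18400 (91.1%) of 20205 probes. Precision is limited by the 4 mice and 16 arrays.

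Only probes naming 1 gene were used (11723), not the 806 that name several or the 7676 without a symbol. Of these, 11590 were matched by gene identifier to RefSeq (GRCm38.p6), which changed no symbol. Values were read as channel 1 over channel 2, signed by the channel of the knockout RNA, and centred on the array median. A mouse's value is the mean of its orientation means. A gene is the mean of its single-gene probes that had a value in each mouse and orientation (6191 genes). Over all 20205 probes, with or without a gene symbol, 10804 had such values. The ratio against 0, the F test between mice (dye orientation as covariate) and the dye difference were computed with limma 3.58.1 in R 4.3.3, two-sided apart from the F test, with Benjamini-Hochberg adjustment at 0.05. They were tested on simulated data. Promoters came from RefSeq entries, matched for 19 of 22 transporters.

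The members and the lists of transporters, pathway genes and markers were chosen with earlier results of these data known. Every measured listed transporter could be named, as could Slc15a2, up to 4 genes of each list with the largest absolute ratio, and the 3 genes nearest to each named transporter. Idh1, Acy3, Foxi1 and Col1a1 were named after their values were seen. Membrane sides follow textbook localisation in rodent proximal tubule. Alternatives covered centring, averaging, orientation, array pairs, probe choice, the mouse as random block, the dye covariate and each mouse left out.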

Additional observations from a re-analysis of the deposited data

Results flagged for a closer look

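The 4 mice were examined for a value standing apart from the others in 27 sets of 4 values, of which chance marks about 1 in 20. Slc22a2 stood out because mouse 1 read -0.0654 while the other mice lay close together, a gap of 0.914 of the whole range and past Dixon's critical value at 95%. Abcc5 stood out because mouse 1 read -0.0201, a gap of 0.847 of the range. At array level neither gene passed the F test between mice, with adjusted p-values of 0.933 for Slc22a2 and 0.93 for Abcc5 (limma). In both genes mouse 1 was the animal closest to the pool. Their values in the other mice are given with the genes above.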

How the results depend on the processing

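The ratios of Slc22a8, Slco1a6 and Slc13a3 kept their sign under every alternative run. The number of genes tested differed from the main 6191 in several of them, so the counts below are not shares of 6191. It was 7251 and 6672 with channel 1 or channel 2 only, and 4305 and 3576 with arrays 1 and 2 or 3 and 4 only. With only probes valued on all arrays it was 2681, and with 1 mouse left out it was 6197 to 7285. With the knockout RNA in channel 1 only, Slc22a8 read 0.60 and Slc22a2 turned to 0.0115, the basolateral median was 0.0324, and 1 transporter passed against the pool. In channel 2 only, Slc22a8 read 0.37 and Slc22a2 -0.28, the basolateral and apical medians were 0.0248 and -0.10 and their difference 0.13, and 1 gene and 0 transporters passed. With arrays 1 and 2 only, 4 genes and 0 transporters passed against the pool, and 31 genes and 0 transporters passed the F test (Slc17a3 adjusted p = 0.175). With arrays 3 and 4 only, 8 genes and 1 transporter passed against the pool, the apical median was -0.16 and the difference 0.16 over 2 apical genes, and 22 genes and 0 transporters passed the F test (Slc17a3 adjusted p = 0.45). With only probes valued on all arrays, 40 genes passed, the apical median was -0.19 and the difference 0.17, again over 2 apical genes. With arrays as measurements and the mouse as random block (estimated correlation 0.014), 467 genes (7.54%) and 4 transporters passed, namely Slc13a3, Slc17a3, Slc22a8 and Slco1a6. At that correlation the arrays of a mouse count as nearly independent, so these counts rest on technical replicates. Without the dye orientation as covariate, 0 transporters passed the F test and Slc17a3 had an adjusted p of 0.0712. Leaving out 1 mouse at a time gave 1 to 6 genes and 0 transporters against the pool, a basolateral median of -0.0208 to 0.0327, 41 to 135 genes and 0 transporters in the F test, and an adjusted p of 0.0578 to 0.17 for Slc17a3. The cause of these shifts was not tested. Knockout and wild-type animals could not be paired, because every knockout mouse was set against the same pool. The dye difference was taken within each mouse. The single pool, 4 mice, unstated dye identity and missing intensities limit what these ratios can show.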
